A study of Rattus norvegicus with 6 samples.

Results

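Acyl-CoA thioesterases (Acot genes) hydrolyse fatty acyl-CoA esters to a free fatty acid and coenzyme A, and so run against the acyl-CoA synthetases that activate fatty acids. The type I enzymes of the Acot1 to Acot6 cluster and their relatives Acnat1, Acnat2 and Baat arose by gene duplication, and Acnat and Baat proteins conjugate fatty acids or bile acids to amino acids in place of releasing them. In liver, Acot1 to Acot4 are well known to be induced by fasting and by activators of PPAR-alpha, the nuclear receptor for fatty acids, whereas the type II enzymes (here Acot7, Acot8, Acot12 and Acot13) have unrelated folds and other regulation. The genes were listed by symbol, with earlier results of these data known. They were Acnat1, Acnat2, Acot1, Acot2, Acot3, Acot4, Acot7, Acot8, Acot12 and Acot13, that is 10 of the 32930 gene rows. Each symbol was found on a single row, and all 10 passed the filter on low counts that left 18455 rows for the test.

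Liver RNA of 6 animals was sequenced, 3 on a high-fat diet with the vehicle 0.5% CMC-Na (HFD group) and 3 on the same diet with HTG (HTG group). The labels give 12 weeks of intervention. For its rats the paper describes gavage that began only after the first weeks of the diet. How long these animals were given HTG is therefore unclear. HTG, the Huazhuo Tiaozhi granule, is a formula of several Chinese herbs, and its entry in the treatment field of the labels is spelled HCG. Neither the age nor the sex of these animals, nor a dose, is stated for the RNA sequencing, all 6 animals ate the high-fat diet, and no group on a normal diet was analysed here. The labels name rats, the methods of the study name C57BL/6 J mice, and the identifiers of the table are Ensembl's for mouse, so its rows were read as mouse genes and coordinates are those of the table, which names no build. The libraries held 50648778 to 90563477 estimated counts. Among low values 4 was found 6450 times, 3 was found 2549 times and 5 was found 1757 times, but 1 was found 5104 times and 2 was found 4229 times. A sequenced fragment was taken to be worth about 4 counts (12662194 to 22640869 fragments), which the frequent values 1 and 2 leave approximate. The 3 fragments that an empty row allows were then 12 counts, covering counting error only. The share of counts on the mitochondrial chromosome was 4.97% to 6.45% under HFD and 9.31% to 15.2% under HTG. Markers of hepatocytes summed to between 93700 and 110000 CPM (counts scaled to a common library total after TMM scaling) in all 6 libraries, a sum carried by Alb (53500 to 74500 CPM), with 11 of the 12 listed measured. Of these 11 single markers, 5 were lower and 1 was higher in the HTG group without overlap, against 15.5% and 16.5% of all genes tested. Among them were Cps1 (log2 fold change -1.62) and Apoa1 (1.24).

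None of the 10 genes had an adjusted p under 0.05 in edgeR's quasi-likelihood test, where 0.0108% of all genes did (0.00542% in each direction). At an adjusted p under 0.1 a single member was lower in the HTG group (Acot7, against 5.43% of all genes) and none was higher (5.41% of all genes). At an unadjusted p under 0.05, 1 of 10 was lower and 1 of 10 was higher (Acot13), near the 12.4% and 12.3% of all genes (24.7% in either direction), so the share of members with a difference was close to that of genes at large. The HFD and HTG values of the same 2 genes did not overlap, against 32.1% of all genes (15.5% lower and 16.5% higher). The fitted difference lay below 0 for 8 of the 10 members and for 48.4% of all genes tested. Over the members the median log2 fold change (HTG over HFD) was -0.78, against 0.03 over all genes tested. Without HFD library 2 that median was -0.10, and the same 2 members had an unadjusted p under 0.05, against 9.72% of all genes lower and 10.6% higher.

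**Figure D1:**
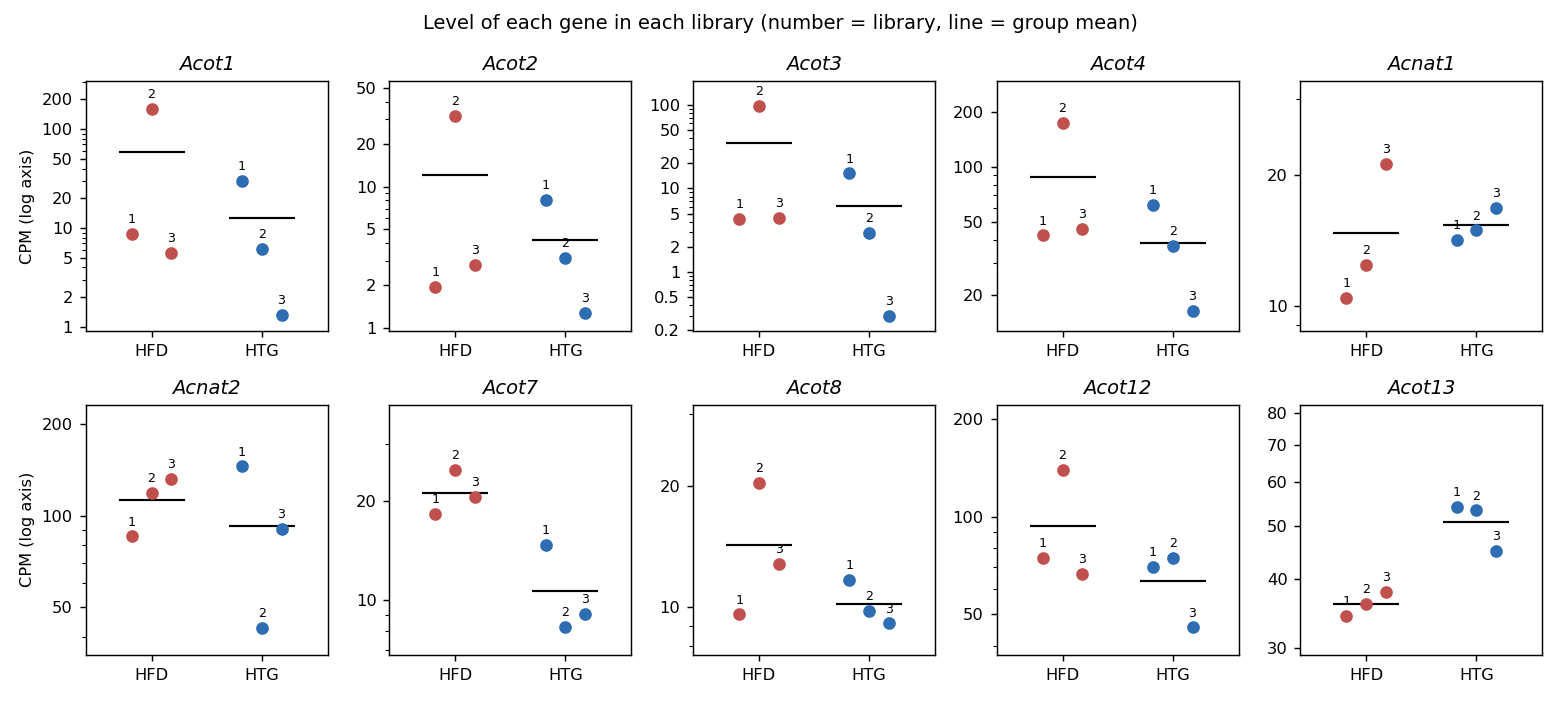
Level of each of the 10 genes in the 3 HFD and 3 HTG libraries in CPM (TMM-scaled counts, log axis with its own range per panel), 1 point per library, with a bar at the group mean. HFD library 2 stands far above its group for Acot1, Acot2 and Acot3, and the groups are apart for Acot7 and Acot13 alone.

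The type I enzymes of the cluster on chromosome 12 differed most between libraries of the same group. Acot1 (ENSMUSG00000072949, 84056264 to 84065145, plus strand) encodes the cytosolic long-chain acyl-CoA thioesterase. Its estimated counts, given here and below in the order of libraries 1, 2 and 3 of a group, were 596, 10739 and 406 under HFD and 2340, 602 and 62 under HTG. Scaled to CPM these were 8.75, 161 and 5.65 under HFD against 30.0, 6.16 and 1.32 under HTG. HFD library 2 was thus the highest and HTG library 3 the lowest, HTG library 1 lay above the remaining HFD libraries, and the groups overlapped. The fitted log2 fold change was -2.22 (SE 1.38, 95% interval -5.39 to 0.95, edgeR's quasi-likelihood test, adjusted p = 0.36).

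Acot2 (ENSMUSG00000021226, 84034635 to 84040647, plus strand) encodes the mitochondrial enzyme of the same kind. It measured 132, 2129 and 201 estimated counts under HFD and 633, 308 and 60 under HTG, or 1.94, 31.9 and 2.80 CPM against 8.13, 3.15 and 1.28 CPM. The order was that of Acot1 at its ends, with HFD library 2 first, HTG library 1 next and HTG library 3 last. HTG over HFD, the log2 fold change was -1.54 (SE 1.06, 95% interval -3.96 to 0.88, edgeR, adjusted p = 0.406).

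Acot3 (ENSMUSG00000021228, 84098918 to 84107176, plus strand), a peroxisomal long-chain acyl-CoA thioesterase, had 295, 6444 and 320 estimated counts under HFD and 1179, 289 and 14 under HTG. In CPM the values were 4.33, 96.6 and 4.46 against 15.1, 2.96 and 0.299. The value of HTG library 3 was just over the 12 counts that an empty row allows, so it says little of how far below the others this library was. Its log2 fold change was -2.51 (SE 1.45, 95% interval -5.83 to 0.81, edgeR, adjusted p = 0.325).

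Acot4 (ENSMUSG00000052392, 84085153 to 84095375, plus strand) encodes a peroxisomal enzyme that also hydrolyses succinyl-CoA. With 2879, 11647 and 3308 estimated counts under HFD and 4860, 3635 and 767 under HTG, it varied less than its neighbours. The values in CPM were 42.3, 175 and 46.1 against 62.4, 37.2 and 16.4, in the same order at the ends. The fit gave a log2 fold change of -1.18 (SE 0.63, 95% interval -2.63 to 0.26, edgeR, adjusted p = 0.288). Acot1 to Acot4 share the KEGG entry K01068 and are close in sequence, so fragments may have been split between them and the division of counts among the 4 rows is uncertain. Acot3 and Acot4 also overlap 4732463B04Rik on the opposite strand (70 to 264 counts) and Gm49366 on the same strand (0 to 67 counts).

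These 4 differences depended on single libraries. Without HFD library 2 the log2 fold changes were 0.80 for Acot1, 0.82 for Acot2, 0.48 for Acot3 and -0.19 for Acot4, so that the first 3 changed sign. Without HTG library 1 they were -3.96, -2.47, -4.39 and -1.74, with adjusted p of 0.184 for Acot1, 0.169 for Acot3 and 0.179 for Acot4 in edgeR although the unadjusted p of these 3 was under 0.05. Without both of these libraries they were -0.95, -0.11, -1.42 and -0.74. DESeq2 gave no p for Acot1 and Acot3, since each held a count that it treats as an outlier.

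**Figure D2:**
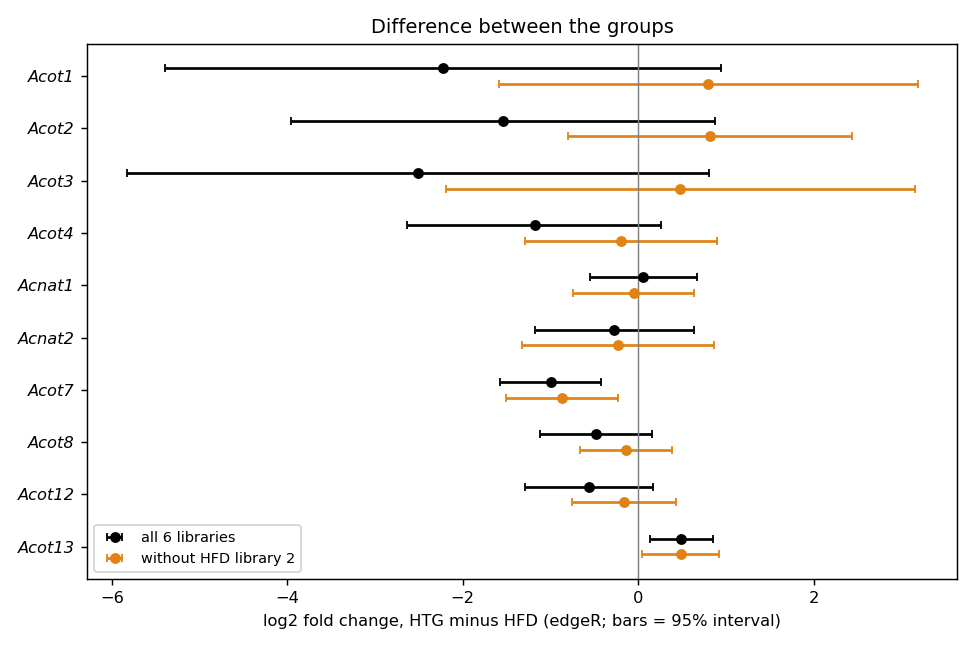
Log2 fold change (HTG over HFD) of the 10 genes with 95% intervals, with all 6 libraries and without HFD library 2. Points of Acot1 to Acot3 move across 0 when HFD library 2 is left out. Those of Acot7 are at -0.99 with all libraries and -0.87 without HFD library 2, and those of Acot13 at 0.49 in both.

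The distance of HFD library 2 from its group was 22.4 times the mean of HFD libraries 1 and 3 in CPM for Acot1, 22.0 times for Acot3, 13.5 times for Acot2 and 3.96 times for Acot4. Of all genes tested, 0.282% exceeded 10 times and 0.818% exceeded 5 times. Among 8014 genes with a mean of at least 10 CPM, Acot1 ranked 3, Acot3 ranked 4 and Acot4 ranked 37 by this ratio, and Acot2 lay below that level. The other members were nearer to their group, at 1.98 times for Acot12, 1.81 for Acot8, 1.28 for Acot7, 1.09 for Acnat2, 1.0 for Acot13 and 0.786 for Acnat1. HFD library 2 was the highest of the 6 libraries for 7 of the 10 members, against 21.4% of all genes. In the HTG group, library 1 was 8.03 times the mean of HTG libraries 2 and 3 for Acot1, 9.3 times for Acot3, 3.67 times for Acot2 and 2.33 times for Acot4.

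The order with HFD library 2 highest, HTG library 1 second and HTG library 3 lowest held for Acot1 to Acot4 and for no other member, and for 1.22% of all genes. This order was read from the values of Acot1 to Acot4, so their having it is not a test. Fragments may also have been split between these rows. It was also looked for in a list of Ppara and 11 genes known as PPAR-alpha targets, where 7 of 12 had it, among them Cyp4a10, Cyp4a14, Cyp4a31 and Cyp4a32, which omega-hydroxylate fatty acids, Angptl4, which inhibits lipoprotein lipase, and the transcription factor gene Creb3l3. Cyp4a14 measured 8.25, 1390 and 11.4 CPM under HFD and 398, 135 and 3.93 CPM under HTG. These Cyp4a genes lie close together on chromosome 4 and may not vary independently. HFD library 2 was the highest for 11 of the 12, and their median log2 fold change was -1.16 with all libraries and -0.07 without HFD library 2. Of peroxisomal genes of acyl-CoA use, 3 of 16 had the order (Crat, Crot and Phyh), as did 1 of 17 acyl-CoA synthetase genes (Acsl1). The study describes a 12 h fast before tissue was taken for its rats, and for the mice of its RNA sequencing paragraph no feeding state is stated, so which applies to these animals is unclear. The part of feeding in the order was not tested.

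**Figure D3:**
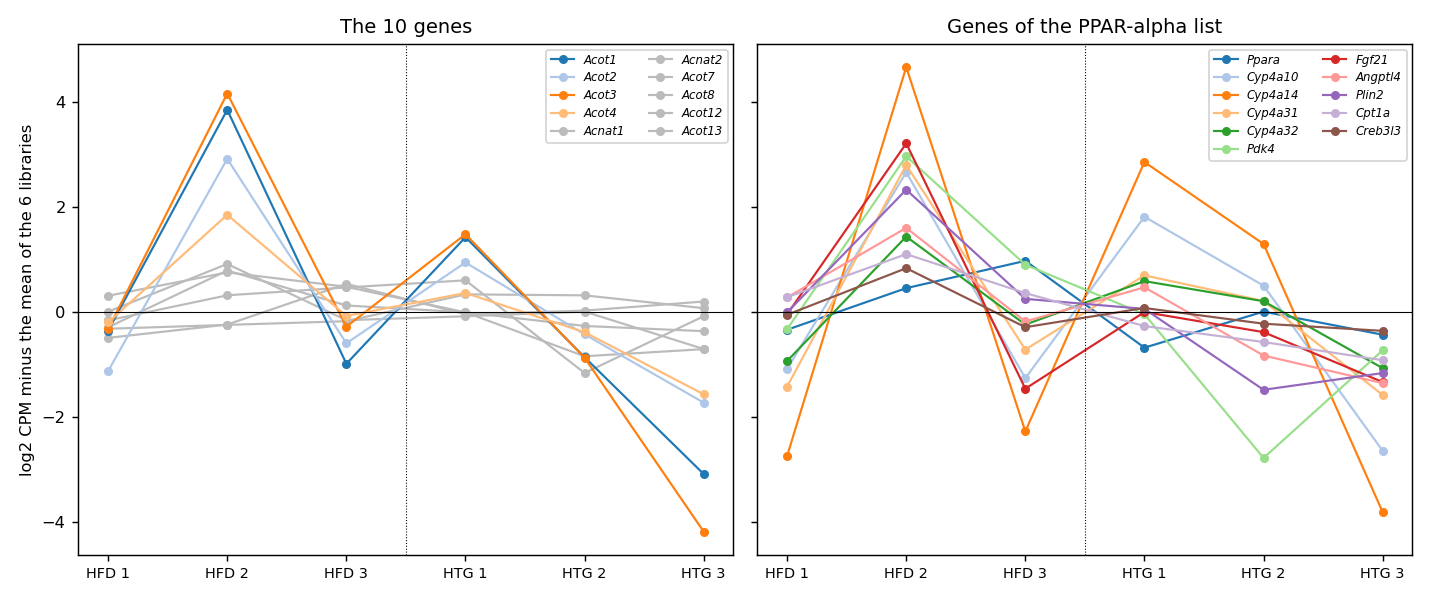
Level of each member and of 11 genes of the PPAR-alpha list in the 6 libraries, as log2 CPM minus the gene's mean over the libraries. Acot1 to Acot4 are high in HFD library 2, next in HTG library 1 and lowest in HTG library 3. So are Cyp4a10, Cyp4a14, Cyp4a31, Cyp4a32, Angptl4 and Creb3l3. The other genes drawn from the PPAR-alpha list (Ppara, Pdk4, Fgf21, Plin2 and Cpt1a) and the other members do not have this order.

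The Acot1 to Acot6 cluster spanned 123489 bp, and 18 other gene rows lay between or within 200 kb of its ends, of which 11 were tested. Among these, HFD library 2 was the highest for 3, of which Gm49366, the row on the same strand that overlaps Acot3 and Acot4, had 0, 67 and 5 counts under HFD. For the 8 tested neighbours with at least 12 counts in every HFD library, the ratio of HFD library 2 to the mean of HFD libraries 1 and 3 was between 0.913 (Mideas) and 1.93 (Gm5436). Requiring these counts leaves out rows that are near 0 in HFD libraries 1 and 3, such as Gm49366, so the range says nothing of them. At an unadjusted p under 0.05, 2 of the 11 neighbours were lower in the HTG group, Papln (log2 fold change -1.35, edgeR, adjusted p = 0.0747) and Ptgr2 (-0.85, edgeR, adjusted p = 0.0605). Another 2 were higher (Gm31513 and Gm5436), where 12.4% of all genes were lower and 12.3% higher. Within the cluster, Acot6 measured 36, 130 and 113 counts in the HFD libraries, a ratio of 1.86, and Acot5 had 10 counts in HFD library 2 and 0 in the others, which is under the 12 that an empty row allows.

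**Figure D4:**
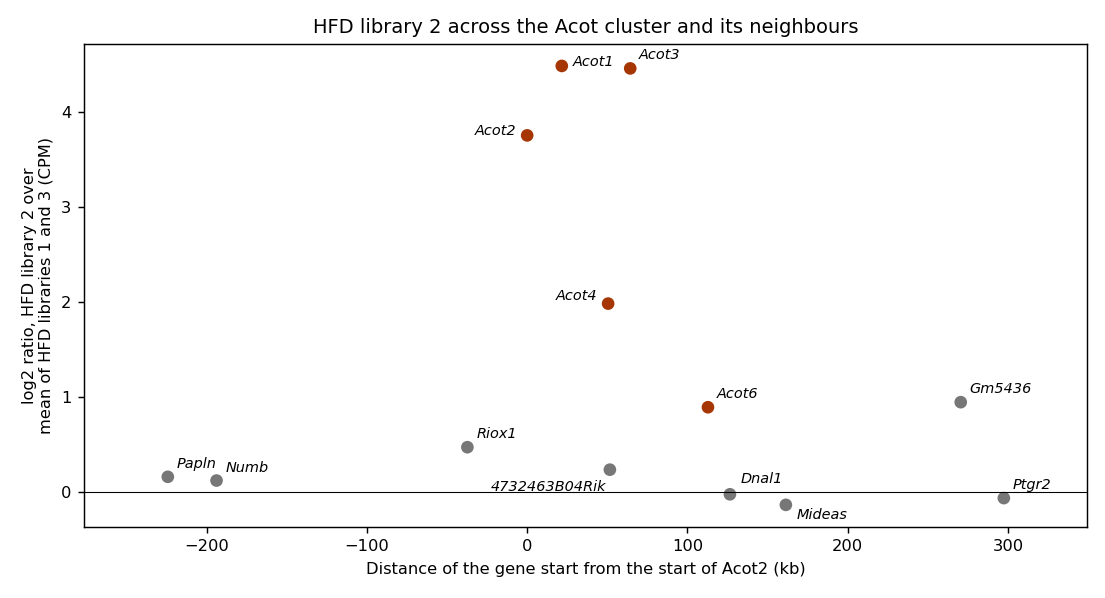
Level of HFD library 2 divided by the mean of HFD libraries 1 and 3 (CPM, log axis) against distance in kb from the start of Acot2, for gene rows within 200 kb of the Acot1 to Acot6 cluster that had at least 12 counts in each HFD library. Acot1, Acot2 and Acot3 lie between 13.5 and 22.4 and Acot4 at 3.96, while the other rows drawn, Acot6 included, lie at 1.93 or lower. Gm49366, with 0, 67 and 5 counts in the HFD libraries, is among the rows not drawn.

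Acot7 and Acot13 were the members whose groups did not overlap, in opposite directions. Acot7 (ENSMUSG00000028937, chromosome 4, 152262591 to 152356312, plus strand) encodes a cytosolic long-chain acyl-CoA thioesterase, best known from brain and macrophages. It had 1244, 1660 and 1482 estimated counts under HFD and 1147, 805 and 424 under HTG, or 18.3, 24.9 and 20.6 CPM against 14.7, 8.24 and 9.05 CPM. All 3 HTG libraries lay below all 3 HFD libraries, with means of 10.7 ± 3.53 and 21.3 ± 3.36 CPM (SD, n = 3 each). The log2 fold change was -0.99 (SE 0.25, 95% interval -1.57 to -0.42) with an adjusted p of 0.0702 in edgeR's quasi-likelihood test. DESeq2 gave -1.02 with an adjusted p of 0.0111, where 5.81% of the genes given an adjusted p were lower and 4.65% higher, and limma on log2(FPKM + 0.1), run where a gene averaged at least 1 FPKM, gave an adjusted p of 0.0449. Over all alternatives the adjusted p was between 0.0111 and 0.228, so the call depends on the tool and the libraries kept. In edgeR it was 0.153 without HFD library 2 and 0.228 without HTG library 2. Macrophage markers (10 of 10 measured, none at 0) summed to 1390, 790 and 1300 CPM under HFD and 1050, 936 and 586 CPM under HTG, and Acot7 was highest in HFD library 2, where they summed to 790. Of these markers 9 of 10 had a fitted difference below 0, where 48.4% of all genes did, with log2 fold changes from -1.53 to 0.22 (median -0.42). At an unadjusted p under 0.05 in edgeR, 2 were lower and 0 were higher, against 12.4% and 12.3% of all genes. The lowest, Adgre1, measured 21.3, 17.1 and 27.8 CPM under HFD and 9.88, 7.26 and 5.76 CPM under HTG, without overlap (log2 fold change -1.53, edgeR, adjusted p = 0.0538). The part of these markers in the difference of Acot7 was not tested. In RNA of whole liver, fewer cells of a type and less RNA per cell cannot be told apart.

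Acot13 (ENSMUSG00000006717, chromosome 13, 25001931 to 25015523, minus strand), also called Them2, encodes a mitochondria-associated thioesterase that binds phosphatidylcholine transfer protein. Its estimated counts were 2337, 2410 and 2725 under HFD and 4204, 5206 and 2107 under HTG. In CPM these were 34.3, 36.1 and 37.9 against 54.0, 53.3 and 45.0. The lowest HTG value was above the highest HFD value, with means of 50.7 ± 4.99 and 36.1 ± 1.81 CPM (SD, n = 3 each). The log2 fold change was 0.49 (SE 0.16, 95% interval 0.13 to 0.85, edgeR, adjusted p = 0.108), and without any single library it was between 0.40 and 0.58. The 13 mRNAs of the mitochondrial genome were also higher in all HTG libraries (summed level 50400 to 60600 CPM under HFD and 91900 to 140000 CPM under HTG). With mitochondrial rows left out of the scaling the log2 fold change of Acot13 was 0.49, and the median over all genes was 0.023 against 0.025. So small a change of scaling cannot tell whether these rises are linked, which was not tested. Pctp, the gene of its binding partner, measured 47.9, 57.1 and 94.5 CPM under HFD and 48.8, 34.7 and 25.6 CPM under HTG, with overlap between the groups and a log2 fold change of -0.87 (SE 0.32, edgeR, adjusted p = 0.139).

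Acnat2 (ENSMUSG00000060317, chromosome 4, 49379840 to 49408151, minus strand) and Acnat1 (ENSMUSG00000070985, chromosome 4, 49447105 to 49473879, minus strand) encode peroxisomal acyltransferases, of which Acnat1 is known to conjugate fatty acids to taurine. Acnat2 had 5827, 7909 and 9462 estimated counts under HFD and 11319, 4171 and 4228 under HTG, or 85.5, 119 and 132 CPM against 145, 42.7 and 90.3 CPM. Its highest and its lowest library were both HTG libraries. Acnat1 had 709, 830 and 1526 estimated counts against 1105, 1461 and 788, or 10.4, 12.4 and 21.2 CPM against 14.2, 14.9 and 16.8 CPM, and its HTG values lay within the HFD range. The log2 fold changes were -0.27 for Acnat2 (SE 0.40, 95% interval -1.18 to 0.64) and 0.06 for Acnat1 (SE 0.27, 95% interval -0.55 to 0.67), with adjusted p of 0.709 and 0.918 in edgeR. Acnat2 was at 0.07 without HTG library 2, and Acnat1 lay between -0.14 and 0.42 without single libraries, so neither had a settled direction. Both genes share the KEGG entry K00659 with each other, and division of counts between them is uncertain.

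Baat, which lies beside them and conjugates bile acids to taurine or glycine, measured 244, 239 and 228 CPM under HFD and 260, 225 and 211 CPM under HTG. It was the steadiest of the 3 genes, with a log2 fold change of -0.03 (SE 0.18, edgeR, adjusted p = 0.936). The cluster of Acnat1, Acnat2 and Baat spanned 126718 bp, with 11 other rows between or within 200 kb of its ends. Of these, 7 were tested.

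Acot8 and Acot12 overlapped between the groups and were highest in HFD library 2. Acot8 (ENSMUSG00000017307, chromosome 2, 164634685 to 164646802, minus strand) encodes a peroxisomal enzyme with broad acyl-CoA specificity. Its estimated counts were 654, 1354 and 920 under HFD and 914, 955 and 427 under HTG, or 9.60, 20.3 and 12.8 CPM against 11.7, 9.77 and 9.12 CPM. Its log2 fold change was -0.48 (SE 0.28, 95% interval -1.12 to 0.16, edgeR, adjusted p = 0.33), and it was -0.14 without HFD library 2. One end of Acot8 overlaps Snx21 on the opposite strand, whose counts were of similar size (422 to 1463), and no source says whether counting took account of strand.

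Acot12 (ENSMUSG00000021620, chromosome 13, 91889631 to 91934267, plus strand) encodes the cytosolic acetyl-CoA hydrolase of liver. It had 5079, 9319 and 4791 estimated counts under HFD and 5466, 7301 and 2135 under HTG, or 74.6, 140 and 66.7 CPM against 70.2, 74.7 and 45.6 CPM. HFD libraries 1 and 3 lay within the HTG range. The log2 fold change was -0.56 (SE 0.32, 95% interval -1.29 to 0.17, edgeR, adjusted p = 0.317), and it was -0.16 without HFD library 2.

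Levels of different genes were compared in FPKM, the authors' value per transcript length. In the HFD group Acnat2 (61.9 ± 12.9 FPKM, SD, n = 3) and Acot13 (46.9 ± 3.43) were highest with overlapping ranges, followed by Acot12 (27.1 ± 9.86), whose range lay below that of Acot13. From Acot12 down, each neighbour in the order overlapped the next, through Acot1 (13.6 ± 20.4), Acot4 (12.3 ± 9.85), Acot7 (9.62 ± 0.985), Acot3 (9.32 ± 13.9), Acot8 (6.78 ± 2.21), Acnat1 (6.69 ± 2.79) and Acot2 (5.09 ± 6.97). In the HTG group Acot13 (64.2 ± 10.3) and Acnat2 (49.1 ± 26.7) overlapped at the top. Acot12 (18.3 ± 5.61) came next and Acnat1 (6.72 ± 0.456) after it, each below the whole range of the gene before. The remaining 6 genes had overlapping neighbours, from Acot4 at 5.49 to Acot3 at 1.68 FPKM. The SDs of Acot1, Acot2 and Acot3 exceeded their means in the HFD group, since a single library carried most of the level.

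The make-up of the summed level shows the same library. The 10 genes summed to 147, 268 and 182 FPKM under HFD and to 207, 145 and 127 FPKM under HTG. Acot1 to Acot4 made up 7.28%, 37.1% and 5.93% of this sum under HFD and 11.3%, 6.55% and 2.35% under HTG. In CPM, which does not divide by length, their share was 19.8%, 56.9% and 16.8% under HFD and 27.2%, 19.5% and 8.2% under HTG, again highest in HFD library 2. The other 6 members summed to 136, 169 and 172 FPKM against 183, 136 and 124 FPKM, a much narrower span. Acnat2 made up 17.0% to 41.1% and Acot13 16.4% to 49.7% of the sum over the 6 libraries. Grouped by the known place of the proteins, the mitochondrial members (Acot2 and Acot13) made up 32.0%, 21.3% and 28.4% under HFD and 34.4%, 50.7% and 41.8% under HTG. The HTG values lay above the HFD values here, and Acot13 held most of this share. Its own level was 46.23, 43.88 and 50.63 FPKM under HFD and 67.65, 72.33 and 52.6 FPKM under HTG. A share also rises where the sum is low, and the sum was lowest in HTG library 3 (127 FPKM). Peroxisomal members (Acnat1, Acnat2, Acot3, Acot4 and Acot8) made up 45.2% to 54.5% under HFD and 29.7% to 49.4% under HTG, and cytosolic members (Acot1, Acot7 and Acot12) 17.1% to 32.1% and 12.6% to 19.5%, each with overlap between the groups.

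**Figure D5:**
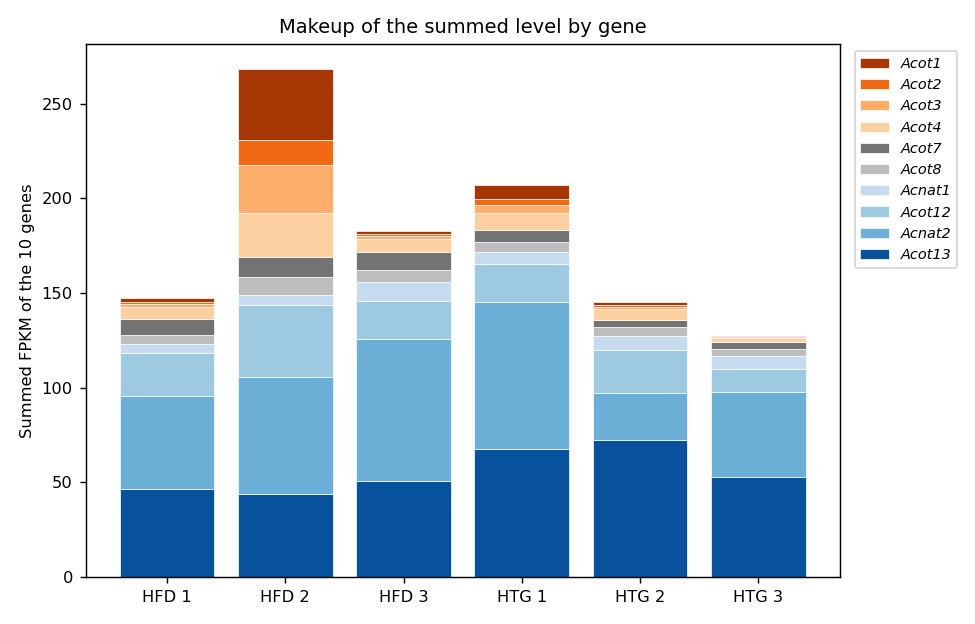
Summed FPKM of the 10 genes in each of the 6 libraries, stacked by gene, on an axis that starts at 0. Acot1 to Acot4 form 37.1% of the sum of 268 FPKM in HFD library 2 and 2.35% to 11.3% in the other 5 libraries, where Acnat2 and Acot13 make up most of it.

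Of 13 further thioesterase genes, 9 were tested. At an unadjusted p under 0.05, 5 had lower and 0 had higher levels in the HTG group, all 5 with groups that did not overlap, against 12.4% of all genes lower at this p and 15.5% lower without overlap. Over the 9 genes the median fold change was -0.43 on the log2 scale. The number lower was 3 without HFD library 2, where 9.72% of all genes were lower. Ppt1, the lysosomal palmitoyl-protein thioesterase, measured 33.0, 31.0 and 30.0 CPM under HFD and 20.8, 16.4 and 23.5 CPM under HTG (log2 fold change -0.63, SE 0.18, edgeR, adjusted p = 0.0837). Hibch, the mitochondrial hydroxyisobutyryl-CoA hydrolase of valine breakdown, measured 54.1, 44.8 and 59.1 CPM against 36.3, 32.6 and 37.1 CPM (-0.58, SE 0.17, edgeR, adjusted p = 0.0937). These 2 and the remaining 3, Acot9 (-0.65), Them4 (-0.67) and Ppt2 (-0.43), had no adjusted p under 0.05 in edgeR. Acot9, a mitochondrial enzyme, measured 6.81, 6.43 and 6.22 CPM under HFD and 4.83, 3.9 and 3.71 CPM under HTG. Acot6 (0.32), Acot11 (-0.20) and Them6 (0.00) had adjusted p of 0.716, 0.85 and 0.998 in edgeR, while Acot10 and Olah were at 0 counts in every library and Acot5 and Them5 were too low to test.

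The genes that make and use the substrates of these enzymes were read from the same fit. Of 17 acyl-CoA synthetase genes tested, none was higher and 4 were lower at an unadjusted p under 0.05 (median -0.37). These compare with 12.3% and 12.4% of all genes. Without HFD library 2, 4 were lower as well, against 9.72% of all genes. Those lower with all libraries included Slc27a5, the bile acyl-CoA synthetase (-0.92, edgeR, adjusted p = 0.0657). Also among them were Slc27a4, a fatty acid transport protein (-0.97, edgeR, adjusted p = 0.0886), and Acsl4, which prefers arachidonate (-0.77, edgeR, adjusted p = 0.105). Of 17 genes of coenzyme A supply and recycling, 2 were higher and 5 were lower at an unadjusted p under 0.05 (median 0.10). Of all genes, 12.3% were higher and 12.4% lower. Without HFD library 2 the counts of this list were again 2 and 5, against 10.6% and 9.72% of all genes. Pank1, which encodes the pantothenate kinase that starts coenzyme A synthesis, measured 148, 192 and 197 CPM under HFD and 90.0, 92.4 and 95.4 CPM under HTG, without overlap (log2 fold change -0.95, SE 0.19, edgeR, adjusted p = 0.0582). Nudt19, which cleaves coenzyme A in peroxisomes, was lower too (-0.62, edgeR, adjusted p = 0.0804) and Ppcdc, of coenzyme A synthesis, was higher (0.73, edgeR, adjusted p = 0.0823).

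Of 16 peroxisomal genes that import or degrade acyl-CoA, none was higher and 5 were lower at an unadjusted p under 0.05 (12.3% and 12.4% of all genes), with a median of -0.45. Without HFD library 2 the number lower was 3, against 9.72% of all genes, and the median was -0.29. The importer gene Abcd3 (-1.46, edgeR, adjusted p = 0.0654) and Amacr, the alpha-methylacyl-CoA racemase gene (-0.63, edgeR, adjusted p = 0.068), had the smallest p. Of the 12 genes of the PPAR-alpha list, none was higher and 4 were lower, among them Cpt1a of mitochondrial fatty acid import (-1.19, edgeR, adjusted p = 0.0654), the lipid droplet gene Plin2 (-1.96, edgeR, adjusted p = 0.124) and Pdk4 (-2.61, edgeR, adjusted p = 0.126). Without HFD library 2 the counts in this list were 1 higher and 1 lower, against 10.6% and 9.72% of all genes. Of the 4 genes taken as partners or regulators, Pctp was the only one with an unadjusted p under 0.05. Without HFD library 2 there were 1 higher and 1 lower of these 4, beside the same 10.6% and 9.72% of all genes. Hnf4a, a nuclear receptor of hepatocytes, had a log2 fold change of -0.71 (edgeR, adjusted p = 0.282), Ppargc1a, a PPAR coactivator, -0.40 (edgeR, adjusted p = 0.444) and Nr1h4, the bile acid receptor, 0.32 (edgeR, adjusted p = 0.407).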

How the data were processed

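Per the labels and the paper's methods, polyadenylated liver RNA was sequenced from both fragment ends in libraries that keep the strand, 3 per group. For each gene and library the authors deposited an FPKM value and an estimated count, which is whole and unscaled. The submitters' processing notes list HISAT2, StringTie, SAMtools and the build mRatBN7.2 without roles, although the rows are mouse genes. Counts of overlapping and near-identical genes are uncertain. Samples were grouped by title. The whole table was fitted with edgeR 4.0.16 (TMM, filterByExpr, glmQLFit, glmQLFTest) in R 4.3.3, with p adjusted over all genes tested by the Benjamini-Hochberg method. SE is the log2 fold change over the root of F. With 3 libraries against 3, the smallest exact permutation p is 0.1. DESeq2 1.42.0, limma 3.58.1, other filters and scalings, the replicate number as a block and each library left out were alternatives, and leaving out HFD library 2 and HTG library 1 together was added after seeing the data. The members and gene lists were chosen with earlier results of these data known. Named were all members, the further thioesterases, partners and regulators, and at most 3 genes of the smallest p in other lists and among neighbours. Genes named for the library order, the markers Alb, Cps1, Apoa1 and Adgre1, and the neighbours Gm49366, Gm31513, Mideas and Gm5436, were chosen after their values were seen. The tests were checked on simulated counts. Results for a few genes are not reported here.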

Additional observations from a re-analysis of the deposited data

How the results depend on the processing

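Under 19 alternatives, Acot4, Acot7, Acot8, Acot12 and Acot13 kept the sign of their log2 fold change. Without HFD library 2 it reversed to 0.80 for Acot1, 0.82 for Acot2 and 0.48 for Acot3, and without HTG library 1 it was -3.96, -2.47 and -4.39. Acnat1 reversed to -0.14 without HFD library 1, -0.05 without HFD library 2, -0.01 without HTG library 3 and -0.03 without HFD library 2 and HTG library 1, and Acnat2 to 0.07 without HTG library 2. They reached 0.42 without HFD library 3 and -0.80 without HTG library 1, respectively. The median over the members was between -1.07 and -0.10 without single libraries. The number of members lower at an adjusted p under 0.05 was 1 (Acot7) in DESeq2 and in limma on log2(FPKM + 0.1) or log2(FPKM + 1) with a mean FPKM of at least 1, and 0 to 1 without single libraries (1 without HTG library 1). At an unadjusted p under 0.05 the number lower was 1 to 4 without single libraries (2 without HFD library 1 and 4 without HTG library 1). The number higher was 0 in both of these limma fits and without HFD library 2 and HTG library 1, and 0 to 1 without single libraries (0 without HFD library 1 or HTG library 1). The share of all genes was taken only with all libraries, in DESeq2 and without HFD library 2. The other counts therefore have no share to be read against. The mean share of Acot1 to Acot4 in the summed level was 16.8% (HFD) and 6.73% (HTG) in FPKM and 31.2% and 18.3% in CPM, which does not divide by length. The causes were not tested.

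Deviations of libraries with the same replicate number correlated with r of -0.078, -0.073 and 0.101. Over all pairs of an HFD and an HTG library, r lay between -0.121 and 0.185. So few libraries cannot tell whether the numbers stand for a pairing, which was not tested. With the number as a replicate block 0 members passed at an adjusted p under 0.05, 1 was lower and 1 was higher at an unadjusted p under 0.05, and the median was -0.70. The adjusted p of Acot7 was 0.15, no longer under 0.1, and no call at an adjusted or unadjusted p under 0.05 changed in number.

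With 3 libraries a group, the intervals of Acot1 to Acot3 are wide (for Acot3, -5.83 to 0.81 on the log2 scale), and Acot3 in HTG library 3 rests on 14 estimated counts.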

Other observations

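For the 3 members with the highest mean FPKM, the genes with the most similar levels were looked up by Pearson's r of log2 CPM over the 6 libraries among 8005 genes, as a description only, since so many genes and so few libraries give high values readily. For Acot13 they were Noc2l (r = 0.994), Albfm1 (0.983) and Pggt1b (0.978). For Acnat2 they were Nubp1 (0.991), Ppa1 (0.989) and Sptlc1 (0.979), and like Acnat2 these 3 genes were lowest in HTG library 2. For Acot12 they were Rps10-ps2 (0.994), Prrg2 (0.989) and Traf4 (0.986), which like Acot12 were highest in HFD library 2 and lowest in HTG library 3.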
